A study of Rattus norvegicus with 6 samples.

Results

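The androgen-responsive genes described here are 31 genes known to respond to androgens in prostate cells, chosen by name from the 32883 genes of the deposited table. Earlier results of these data were known when the list was chosen. All 31 were found under a single row each, and all 31 had enough reads to be tested. RNA sequencing covered 6 libraries of rat (Rattus norvegicus) prostate. The hormone group holds 3 libraries from rats that carried 4 pellets under the skin for 4 weeks, and each pellet held 25 mg of testosterone and 2.5 mg of estradiol. The control group holds 3 libraries from rats whose skin was cut and stapled with no pellet. The labels name benign prostatic hyperplasia as the condition of all 6 samples, and they give no strain, age or lobe of the gland. The labels name no castration in either group. Both hormones were given together, and their parts cannot be told apart. The labels do not state that the tissues are from different animals, and p-values therefore reflect only the spread among these 6 samples, which may be technical.

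Androgens act through a nuclear receptor, which is switched on by testosterone and by its stronger product dihydrotestosterone. The receptor then binds DNA in pairs at androgen response elements and changes the transcription of nearby genes. In the prostate this signalling is best known in luminal cells, the epithelial cells that make the secretion. Most genes of the list were recognised in human prostate cancer cells, so their response in rat tissue is not given by the list itself. The glucocorticoid receptor recognises a very similar DNA element, and Fkbp5, Sgk1 and Tsc22d3 are also well known glucocorticoid targets.

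Of the 31 genes, 3 rose with the pellets and 0 fell (edgeR quasi-likelihood test, adjusted p under 0.05 over the 14003 genes tested). They were Mboat2, a lysophospholipid acyltransferase of membrane lipids, Eaf2, a partner of ELL transcription elongation factors, and Ncapd3, a subunit of the condensin II complex that packs chromosomes. They made up 9.68% of the list, while 2.39% of all genes tested rose, 0.886% fell and 3.27% changed in either direction. DESeq2 called 8 of the 31 higher and 2 lower, where it called 5.78% and 3.74% of all genes. With limma on log2(FPKM + 1), 2 were higher and 1 lower, against 1.48% and 1.03% of all genes. An edgeR fit with the replicate number as a block called 2 higher and 0 lower, against 1.63% and 0.571%. By edgeR the 13 genes with an unadjusted p under 0.05 made up 41.9% of the list, against 22.8% of all genes tested. Because the list was chosen with earlier results of these data known, these shares are no independent test of it.

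The promoters of the 3 genes that rose are shown here, and their part in the response was not tested. Each line gives the 250 bases before the annotated start, 5′ to 3′ on the strand of the gene, from RefSeq in build GRCr8. Capitals mark the general promoter motifs CCAAT and GGGCGG, on either strand. Eaf2 lies at chr11:77465335-77465584, Mboat2 at chr6:47199527-47199776 and Ncapd3 at chr8:33696020-33696269, all on the plus strand.
Eaf2: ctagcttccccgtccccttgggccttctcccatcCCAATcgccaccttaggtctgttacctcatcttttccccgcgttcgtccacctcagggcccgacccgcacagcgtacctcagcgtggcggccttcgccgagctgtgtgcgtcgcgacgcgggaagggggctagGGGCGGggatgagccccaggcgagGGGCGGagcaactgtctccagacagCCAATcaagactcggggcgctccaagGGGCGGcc
Mboat2: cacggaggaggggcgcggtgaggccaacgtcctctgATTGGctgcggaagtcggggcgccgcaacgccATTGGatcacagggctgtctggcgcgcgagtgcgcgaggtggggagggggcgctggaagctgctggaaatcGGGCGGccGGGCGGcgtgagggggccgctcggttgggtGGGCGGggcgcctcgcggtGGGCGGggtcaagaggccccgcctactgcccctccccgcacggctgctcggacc
Ncapd3: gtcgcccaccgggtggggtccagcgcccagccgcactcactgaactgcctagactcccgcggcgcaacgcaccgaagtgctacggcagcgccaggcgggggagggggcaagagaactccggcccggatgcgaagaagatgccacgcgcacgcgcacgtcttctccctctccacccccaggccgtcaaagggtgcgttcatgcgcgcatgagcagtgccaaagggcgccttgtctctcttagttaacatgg

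A RefSeq promoter window was found for 27 of the 31 genes, and Camkk2, Tpd52, Homer2 and Ndrg1 had none under their symbols. The palindromic androgen response element was searched as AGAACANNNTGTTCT, and its single arm as AGAACA, on both strands. Neither was found in the windows of the 27 genes, while the arm occurs in 18.5% of the 27457 genes with a window and the palindrome in 1 of them. The estrogen response element, searched as GGTCANNNTGACC, was in none of the 27, and its arm GGTCA was in 8 of 27, against 37.2% of all genes. That arm stands in the Mboat2 window and in neither of the other two. CCAAT was in 14 of the 27 and GGGCGG in 21 of them, against 36.1% and 33.5% of all genes. The genes compared with include genes not tested for expression here. The windows of the list were rich in G and C, with a median of 67.2% against 51.2% over all windows. GGGCGG is itself made of these bases, while AGAACA is mostly A. The part of base content in these counts was not tested. A match here describes letters within 250 bases of a start and says nothing of sites elsewhere.

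Levels are given as CPM, read counts scaled to library size with TMM factors. Mboat2 had 79.1, 60.1 and 66.3 CPM in hormone libraries 1 to 3, against 4.50, 5.41 and 10.3 CPM in controls 1 to 3. The lowest hormone library stood far above the highest control. The means were 68.5 ± 9.66 and 6.72 ± 3.10 CPM (SD, n = 3 each), and edgeR gave a log2 fold change of 3.34 with an SE of 0.31 (adjusted p = 0.00614), or 10.2-fold. Only 48 of the 14003 genes tested had a higher fold change. In the table's coordinates, for which no source used here names the build, Mboat2 (ENSRNOG00000061050) spans 44009872 to 44131387 of chromosome 6.

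Eaf2 had 68.3, 78.0 and 71.1 CPM in the hormone libraries and 19.8, 21.3 and 15.9 CPM in the controls. Both groups were tight, and every hormone library exceeded every control. The log2 fold change was 1.93 ± 0.14 (SE; edgeR adjusted p = 0.00268), or 3.81-fold, and Eaf2 had the narrowest 95% interval of the 3 genes, 1.60 to 2.26. Eaf2 was described early as an androgen-induced gene of rat prostate. It lies on chromosome 11 at 66878658 to 66923092 (ENSRNOG00000002350).

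Ncapd3 had 17.7, 20.5 and 18.4 CPM in the hormone libraries and 9.06, 10.6 and 11.4 CPM in the controls, so its groups were also fully apart. Its log2 fold change of 0.86 ± 0.16 was smaller (SE; edgeR adjusted p = 0.0333), or 1.82-fold. The call was lost without control 2 (adjusted p = 0.102) and without hormone 1, 2 or 3 (0.103, 0.133 and 0.114). It was lost with the replicate number as a block too (0.0711), and in all 5 limma fits (0.0790 to 0.109). Ncapd3 works in dividing cells, and markers of proliferation moved with it. Of 11 such markers, 9 rose and 0 fell, against 2.39% and 0.886% of all genes tested. None was at 0, and their summed level was 130 to 170 CPM in hormone libraries and 44.4 to 57.7 CPM in controls. Their part in the Ncapd3 result was not tested. Ncapd3 (ENSRNOG00000008932) spans 28075551 to 28144741 of chromosome 8.

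**Figure D1:**
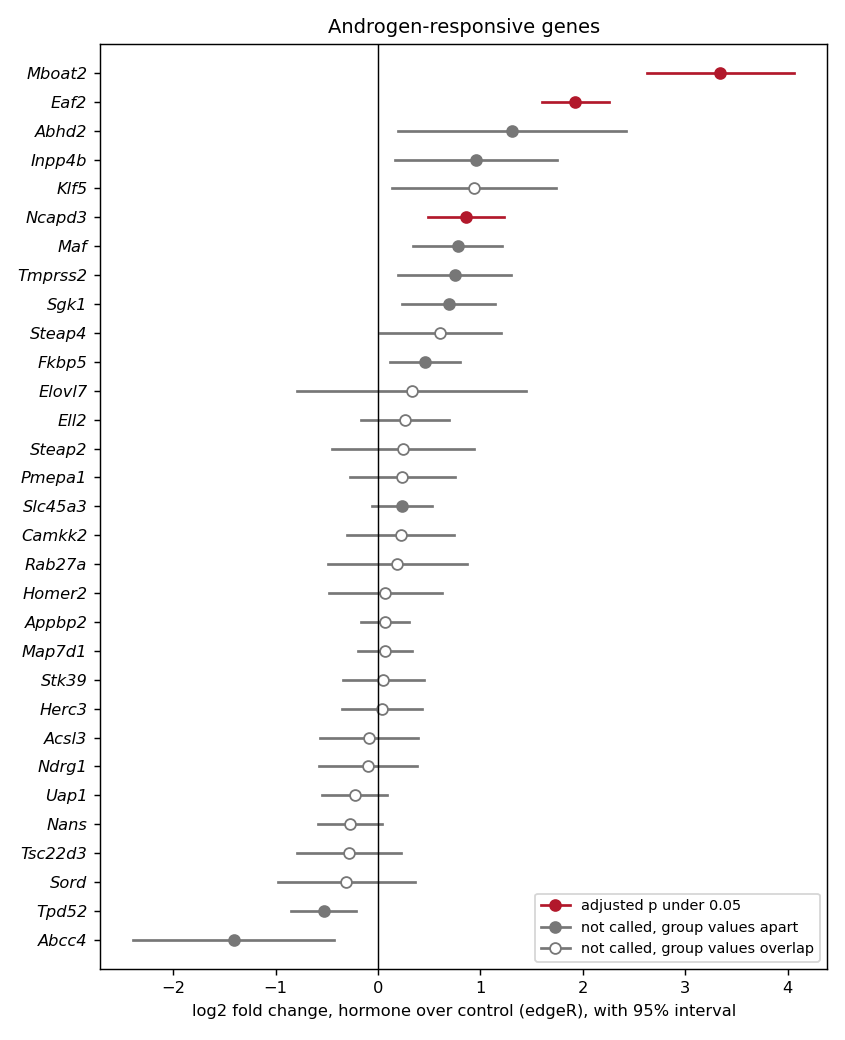
Log2 fold change of hormone over control for each of the 31 androgen-responsive genes (horizontal axis, edgeR, with 95% interval), ordered by size down the page. Red marks the 3 genes with adjusted p under 0.05, filled grey the 9 others with no overlap between the groups, and open grey the rest. Among all genes tested, 31.3% showed no overlap. Mboat2 at 3.34 and Eaf2 at 1.93 stand apart from the others, which lie between -1.41 and 1.31.

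The other 28 genes did not pass the test, and 9 of them still had hormone and control values that did not overlap. Over the whole list the hormone values lay above the controls for 10 genes and below for 2. Among all genes tested, the groups did not overlap for 31.3%, with hormone above for 16.1% and below for 15.3%. The log2 fold change was positive for 23 of the 31 genes, with a median of 0.24, against 6986 of 14003 genes and a median of -0.0015 over all genes tested. Homer2, Appbp2, Map7d1, Stk39 and Herc3 lay between 0.04 and 0.07 and turned negative when libraries were scaled by their totals alone, which left 18 positive. That scaling moved the median of all genes by -0.13 and the median of the list to 0.11, and 23 genes of the list stayed above the median of all genes.

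**Figure D2:**
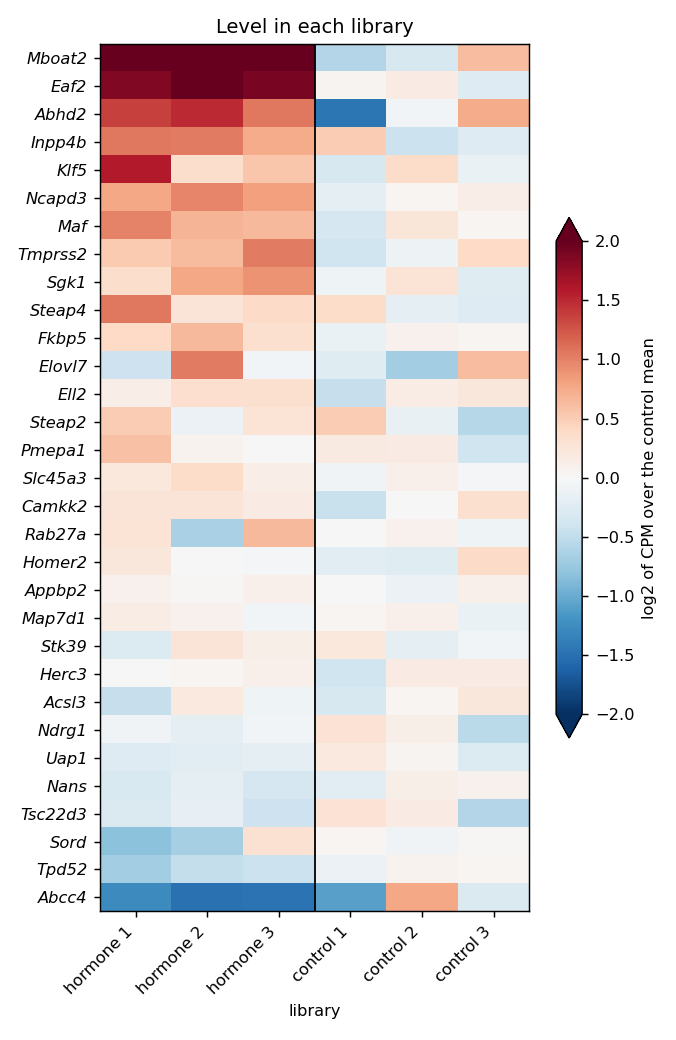
Level of each of the 31 androgen-responsive genes (rows, ordered by fold change) in each library (columns, hormone left of control), as log2 of its CPM over the control mean. Colours are capped at -2 and 2. Mboat2 and Eaf2 are dark red in all 3 hormone libraries, Abhd2 differs widely among the 3 controls, and most lower rows are pale.

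Among the marker lists for cell types, few genes passed the test. The luminal marker list (11 genes, none at 0) summed to 4476 to 4837 CPM in hormone libraries and 3588 to 4454 CPM in controls, and 1 of the 11, Krt8, rose. Leukocyte markers summed to 984 to 1869 CPM in hormone libraries, highest in hormone 1, and 558 to 827 CPM in controls. Of the 9 leukocyte markers tested, 0 passed, and all 9 had a positive log2 fold change, with a median of 1.13. Hormone values lay fully above the controls for 6 of them and for 5 of the 11 luminal markers, against 16.1% of all genes tested. They lay fully below for 0 leukocyte markers and 1 luminal marker, against 15.3% of all genes. The B cell gene Cd79b was at 0 in all 3 controls. The summed level of smooth muscle markers overlapped, at 4263 to 6231 CPM in hormone libraries and 4489 to 9320 CPM in controls. All 9 of these markers had a negative log2 fold change, with a median of -0.41. Of them 0 passed, and 1 was wholly below the controls. In whole tissue, more cells of a type and more RNA per cell cannot be told apart, and the part of cell makeup in the values here was not tested.

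Genes of transcription and elongation held 5 of the 31, with 1 call, Eaf2. Ell2, an elongation factor that Eaf2 can bind, had 89.2, 103 and 101 CPM in hormone libraries and 58.9, 89.7 and 94.6 CPM in controls. Its groups overlapped through controls 2 and 3, which were above hormone 1, and the log2 fold change was 0.27 ± 0.18 (edgeR adjusted p = 0.417). The difference between Eaf2 and Ell2 was not tested. Maf, a bZIP transcription factor, had 34.9, 28.1 and 27.7 CPM in hormone libraries and 13.9, 20.8 and 18.1 CPM in controls. Its values did not overlap and its log2 fold change was 0.78 ± 0.19 (edgeR adjusted p = 0.0688, DESeq2 adjusted p = 0.00938). Klf5, an epithelial zinc finger factor, reached 122 CPM in hormone 1, while hormone 2 and 3, at 52.0 and 59.9 CPM, were close to control 2 at 52.5 CPM. Tsc22d3, a leucine zipper protein induced by glucocorticoids, had 57.4 to 68.5 CPM in hormone libraries and 51.1 to 93.1 CPM in controls.

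Of the 4 lipid enzymes, Mboat2 alone passed. Abhd2, a membrane lipid hydrolase, was the most abundant gene of the list, with 475 ± 80.0 FPKM in hormone libraries and 205 ± 128 FPKM in controls (SD, n = 3 each; FPKM is scaled by gene length). In CPM it had 1292, 1407 and 1043 in hormone libraries and 185, 482 and 840 in controls. The groups did not overlap, but the controls spread more than 4-fold among themselves. Its log2 fold change of 1.31 ± 0.48 did not pass (edgeR adjusted p = 0.164, DESeq2 adjusted p = 0.0339), and its 95% interval ran from 0.20 to 2.43. Acsl3, which activates long fatty acids, had 30.3 to 47.7 CPM in hormone libraries and 33.2 to 48.8 CPM in controls. Elovl7, a fatty acid elongase, had few reads, with 3.03 to 8.36 CPM in hormone libraries and 2.49 to 6.23 CPM in controls. Neither differed beyond the spread (edgeR adjusted p = 0.822 and 0.711).

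The signalling genes numbered 8, of which 0 passed and 3 had hormone values wholly above the controls, a pattern that 16.1% of all genes tested showed. Fkbp5, a co-chaperone of steroid receptors and a widely used readout of androgen action, had 593, 704 and 560 CPM in hormone libraries and 409, 479 and 465 CPM in controls. The groups were apart, yet the log2 fold change was only 0.46 ± 0.15 (edgeR adjusted p = 0.132, DESeq2 adjusted p = 0.0291), or 1.37-fold with a 95% interval of 1.08 to 1.74. Sgk1, a kinase that regulates ion transport, had 286, 383 and 419 CPM in hormone libraries and 213, 271 and 191 CPM in controls. Its hormone values were likewise all higher, with a log2 fold change of 0.69 ± 0.19 (edgeR adjusted p = 0.10, DESeq2 adjusted p = 0.0162). Inpp4b, a phosphoinositide phosphatase, was the least abundant gene of the list, with 107 reads in the hormone group and 59 in the control group. Its values were apart too, at 2.19 to 2.70 CPM in hormone libraries and 0.972 to 1.86 CPM in controls, with an edgeR adjusted p of 0.157. An unnamed gene, AC123471.1, lies within the Inpp4b span and had 36 reads in the hormone group and 27 in the control group.

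The remaining 5 signalling genes overlapped between groups. Camkk2, a calcium-dependent kinase upstream of AMP-activated kinase, had 9.06 to 9.74 CPM in hormone libraries and 5.99 to 10.2 CPM in controls. Stk39, a kinase of ion cotransporters, had 76.7 to 110 CPM in hormone libraries and 80.5 to 107 CPM in controls. Homer2, a scaffold protein, had 6.33 to 7.53 CPM in hormone libraries and 5.47 to 8.41 CPM in controls. All these ranges overlapped. Pmepa1, an inhibitor of TGF-beta signalling named for its androgen induction, had 31.5 to 47.7 CPM in hormone libraries and 24.1 to 35.8 CPM in controls. Ndrg1, a stress-responsive gene, had 40.1 to 43.9 CPM in hormone libraries, inside the control range of 31.3 to 55.6 CPM. For these 5 genes the edgeR adjusted p lay between 0.541 and 0.884.

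Among the 8 membrane and trafficking genes, 0 passed and the group split, with 2 genes wholly above the controls and 2 wholly below, against 16.1% and 15.3% of all genes tested. Tmprss2, a membrane serine protease, had 505, 550 and 728 CPM in hormone libraries and 268, 328 and 463 CPM in controls (log2 fold change 0.75 ± 0.24, edgeR adjusted p = 0.130, DESeq2 adjusted p = 0.0336). Slc45a3, a prostate-enriched transporter, differed less, with 386, 430 and 365 CPM in hormone libraries and 317, 357 and 327 CPM in controls (edgeR adjusted p = 0.300). Both genes were higher in each hormone library than in any control.

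Tpd52, a protein of vesicle traffic, went the other way, with 332, 387 and 402 CPM in hormone libraries and 499, 568 and 553 CPM in controls. Every hormone value was below every control. The log2 fold change was -0.53 ± 0.13 (edgeR adjusted p = 0.0792), and it passed with DESeq2 (adjusted p = 0.00359) and with library totals alone (0.0388). Abcc4, a pump for cyclic nucleotides and organic anions, had 19.3, 16.6 and 16.7 CPM in hormone libraries and 22.0, 79.6 and 38.3 CPM in controls. Its hormone values were close together and its controls were not, with control 2 far the highest. The log2 fold change of -1.41 ± 0.42 did not pass with edgeR (adjusted p = 0.114) and passed with DESeq2 (adjusted p = 0.0120). With edgeR it was -0.78 without control 2 (0.183) and -1.75 without control 1 (0.0455).

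Steap4 and Steap2 are metalloreductases that reduce iron and copper. Steap4 had 95.7, 55.1 and 59.9 CPM in hormone libraries and 59.3, 40.5 and 38.3 CPM in controls, and the groups overlapped through control 1. Steap2 had 11.6 to 17.8 CPM in hormone libraries and 8.47 to 17.9 CPM in controls. Rab27a, a small GTPase of exocytosis, had 24.8 to 61.3 CPM in hormone libraries around a narrow control range of 36.6 to 41.2 CPM. Appbp2 was nearly level, with 96.8 to 102 CPM in hormone libraries and 88.5 to 102 CPM in controls, and its 95% interval of -0.17 to 0.31 bounds the log2 difference.

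The 3 enzymes of sugar metabolism all had a negative log2 fold change, and 0 passed. Nans, which makes sialic acid, had 278, 301 and 272 CPM in hormone libraries and 296, 370 and 363 CPM in controls (log2 fold change -0.28, edgeR adjusted p = 0.264). Uap1, which makes the sugar nucleotide UDP-N-acetylglucosamine, had 75.8 to 78.7 CPM in hormone libraries, against 74.6 to 103 CPM in controls (-0.23, adjusted p = 0.349). For both genes the groups met at 1 control library. Sord, sorbitol dehydrogenase, had 15.4 and 17.3 CPM in hormone 1 and 2 and 33.6 CPM in hormone 3, around a control range of 26.1 to 28.2 CPM. Map7d1, a microtubule-associated protein, had 109 to 126 CPM in hormone libraries and 103 to 121 CPM in controls. Herc3, a ubiquitin ligase, had 34.0 to 36.5 CPM in hormone libraries and 26.0 to 38.3 CPM in controls, and Nap1l5 lies within its span with 21 reads in the hormone group and 65 in the control group. For 19 of the 31 genes the 95% interval of the fold change lay within 2-fold either way.

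**Figure D3:**
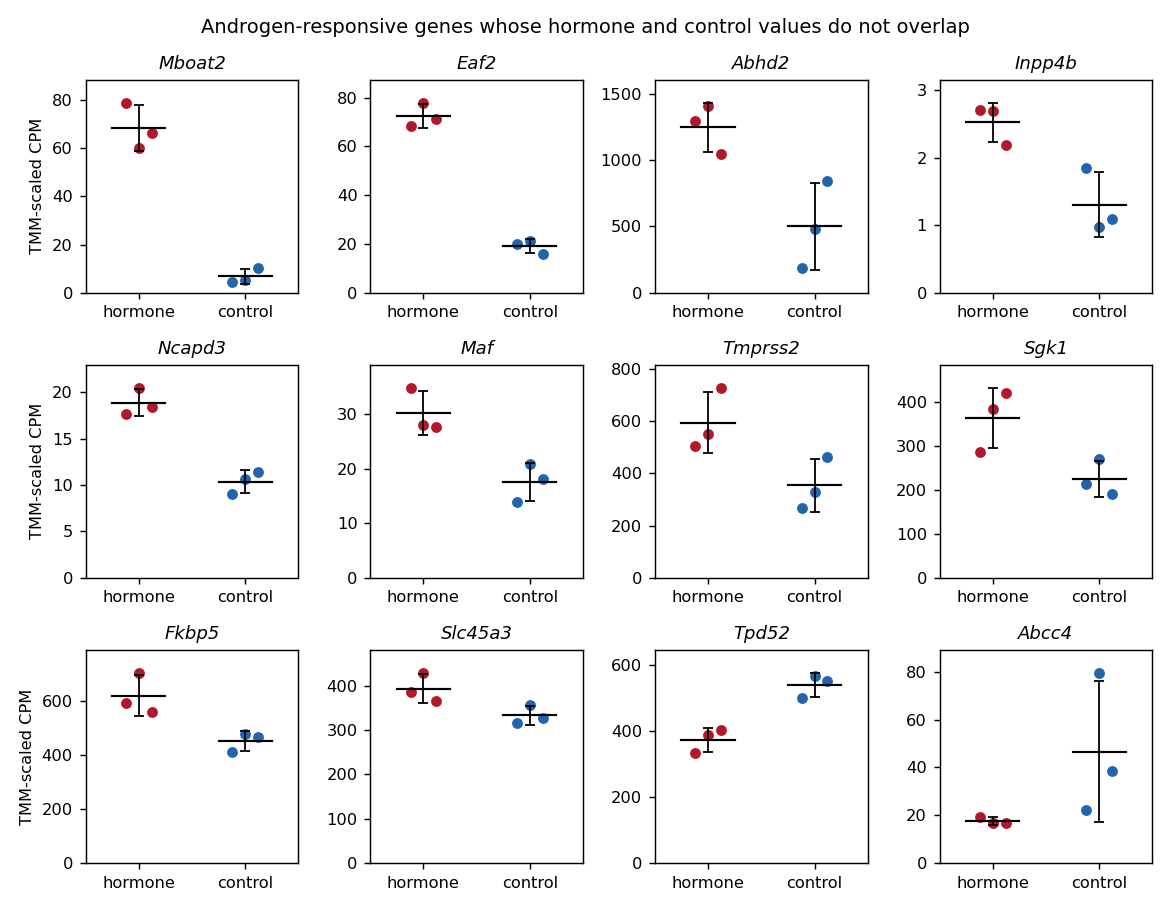
TMM-scaled CPM (vertical axes, from 0) of the 12 androgen-responsive genes whose hormone values (red, left) and control values (blue, right) do not overlap. Among all genes tested, 31.3% showed no overlap. Points are libraries 1 to 3 from left to right, long bars the mean and error bars the SD (n = 3 each). Mboat2 at 60.1 to 79.1 against 4.50 to 10.3 CPM shows the widest gap as a ratio, and only Tpd52 and Abcc4 are lower in hormone libraries.

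Control libraries varied more than hormone libraries in this list. The median coefficient of variation over the 31 genes was 11.6% among hormone libraries and 20.5% among controls, and over all genes tested it was 12.1% and 17.9%. Control 1 was the lowest of the 6 libraries for 11 of the 31 genes and control 3 for 9. The summed level of the list was 4901, 5286 and 4940 CPM in hormone libraries and 3175, 3907 and 4128 CPM in controls. Abhd2 made up 21.1% to 26.6% of that sum in hormone libraries and 5.81% to 20.4% in controls. Without Abhd2 the sums were 3609 to 3897 CPM in hormone libraries and 2991 to 3426 CPM in controls, still apart.

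The tissue showed prostate markers, with Tgm4, the transglutaminase of the copulatory plug, at 79107 to 109000 CPM in hormone libraries and 65039 to 118587 CPM in controls. Pbsn, the probasin gene, was listed at 0 in all 6 libraries. Of the 6 secretory markers tested, 1 rose and 0 fell, against 2.39% and 0.886% of all genes tested. Of their log2 fold changes, 3 were positive and 3 negative, from -1.61 to 4.72, so the median of 1.17 stands for no typical gene. Scgb2a1 and Scgb2a2, at 2.39 and 2.41, did not pass (edgeR adjusted p = 0.382 and 0.377) and were -0.21 and -0.16 without hormone 1. The gene that rose, Sbp, a secreted spermine-binding protein of the rat prostate, had 25.0, 88.1 and 35.1 CPM in hormone libraries and 1.43, 1.21 and 2.95 CPM in controls. Its log2 fold change of 4.72 (edgeR adjusted p = 0.0119) was larger than that of Mboat2, was 4.01 without hormone 2, and lost its call without control 2 (0.0636). Of the 6 markers, 1 lay wholly above the controls and 1 wholly below, against 16.1% and 15.3% of all genes tested. The latter was Msmb, a major secretory protein, with a log2 fold change of -1.61. It did not pass with edgeR (adjusted p = 0.128) and passed with DESeq2 (adjusted p = 0.00665). The seminal vesicle transcript Semg1 ranged from 3481 to 8971 CPM in hormone libraries and from 1074 to 23733 CPM in controls, highest in control 3.

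Of 24 genes of androgen signalling and its cofactors, 21 were tested, with a median log2 fold change of -0.05. Of these, 1 fell and 0 rose, against 0.886% and 2.39% of all genes tested. The gene that fell was Ptges3, the p23 co-chaperone of steroid receptors, with 104, 103 and 91.6 CPM in hormone libraries and 144, 152 and 142 CPM in controls. The log2 fold change was -0.55 ± 0.10 (edgeR adjusted p = 0.0354), a call kept when control 1 was left out (0.0398) and lost without any other library (up to 0.152). It was also lost with the replicate block (0.0761), with no filter on low counts (0.0518) and with limma and no filter (0.0593). Of the 21 genes, hormone values lay wholly below the controls for 6 and wholly above for 1, against 15.3% and 16.1% of all genes tested. Grhl2 and Gata2, transcription factors that work with the receptor, were among the 6. They did not pass with edgeR (log2 fold changes -0.69 and -0.55, adjusted p = 0.0682 and 0.145), and both passed with DESeq2. The corepressor Ncor1 was wholly above the controls (0.49, adjusted p = 0.123).

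A wider list of 76 other androgen response genes gave 73 tested, of which 2 rose and 2 fell, with a median log2 fold change of 0.08. Over all genes tested 2.39% rose and 0.886% fell, so the count of genes that rose in this list was near the background. Krt8, a luminal keratin, averaged 509 ± 49.7 CPM in hormone libraries and 264 ± 22.8 CPM in controls (edgeR adjusted p = 0.0164), and Ptk2b, a kinase related to focal adhesion kinase, averaged 150 ± 8.71 CPM in hormone libraries and 96.9 ± 5.42 CPM in controls (0.0246). Ncoa4, a receptor coactivator that also delivers ferritin for breakdown, had 389, 451 and 451 CPM in hormone libraries and 826, 813 and 893 CPM in controls, a log2 difference of -0.97 ± 0.13 (0.0148). Gucy1a1, a subunit of the nitric oxide receptor, averaged 10.2 ± 1.92 CPM in hormone libraries and 23.3 ± 4.55 CPM in controls (0.0328). Without any 1 hormone library or control 2 all 4 calls were lost (adjusted p up to 0.107). Ptk2b was also lost without control 3, with the replicate block (0.0685), with library totals alone (0.0527) and in all 5 limma fits (0.0600 to 0.0937), and was called in 5 of 17 alternatives. Gucy1a1 was also lost without control 1 or 3, with the replicate block (0.0593) and with limma and no filter (0.0689). Krt8 was lost with limma and no filter too (0.0587).

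The lists of genes repressed by androgens and of other glucocorticoid-responsive genes were small. Of 5 repressed genes tested, 0 passed, and Clu, Ackr3 and Ddc had log2 fold changes of -0.77, -0.82 and -1.17 while Ccn3 had 1.09 (edgeR adjusted p = 0.402, 0.186, 0.316 and 0.150). Single libraries weighed on these values: Clu was -1.44 without hormone 1 and -0.37 without control 2, Ddc -0.66 without hormone 1, and Ccn3 1.65 without control 2. Ackr3 passed without control 3 (-1.12, adjusted p = 0.0263), and Ccn3 passed with DESeq2 (adjusted p = 0.0469). Of 18 glucocorticoid-responsive genes tested outside the androgen list, 2 rose and 1 fell, against 2.39% and 0.886% of all genes tested. The metallothioneins Mt1 and Mt2A, which bind zinc and copper, rose to 2014 ± 289 and 730 ± 121 CPM in hormone libraries, against 385 ± 107 and 106 ± 38.0 CPM in controls (SD, n = 3 each; adjusted p = 0.00820 and 0.00862). Both are also induced by metals. Cdkn1c, an inhibitor of the cell cycle, fell by 1.82 on the log2 scale (0.0316), a call lost without control 2 or any hormone library (up to 0.111) and in 4 of 5 limma fits (0.0530 to 0.0956). Klf9 did not pass with edgeR (0.83, adjusted p = 0.0560) and passed with DESeq2 (adjusted p = 0.00377). Fkbp5, Sgk1 and Tsc22d3, which answer to both receptors, had log2 fold changes of 0.46, 0.69 and -0.29, and none passed.

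**Figure D4:**
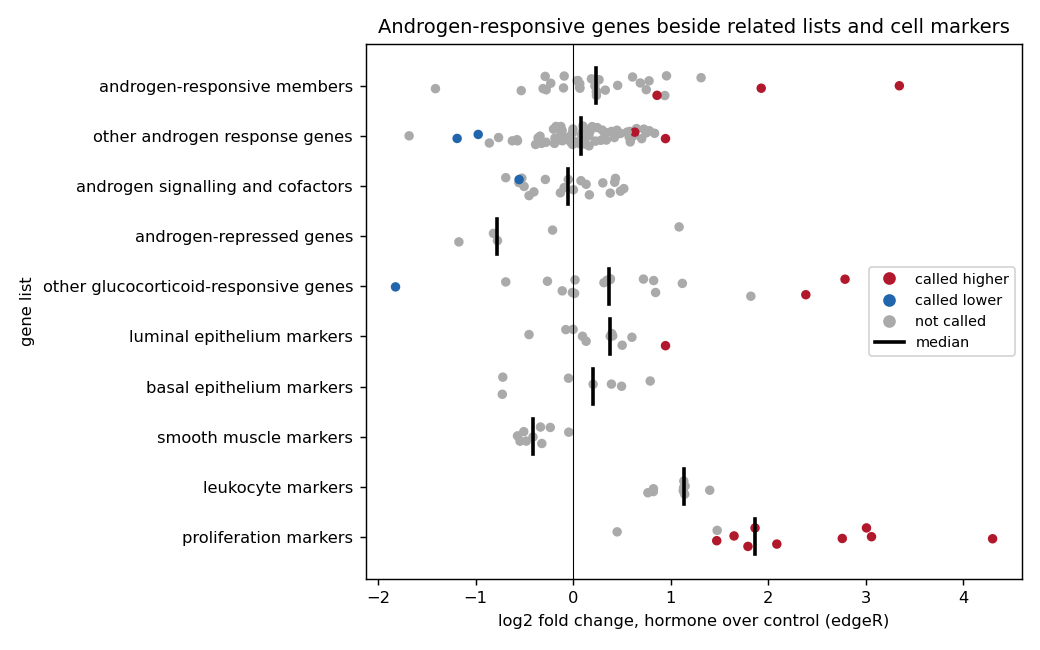
Log2 fold change of hormone over control (horizontal axis, edgeR) of every gene tested in the androgen-responsive list, in 4 related lists and in 5 marker lists (rows). Each point is a gene, red if called higher, blue if called lower and grey if not called, and black bars are medians. The androgen-responsive list has a median of 0.24 with Mboat2 and Eaf2 far to the right, and the proliferation markers lie at a median of 1.87.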

How the data were processed

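Per the labels, column-purified total RNA was made into paired-end TruSeq libraries, and TopHat, Bowtie2 and HTSeq are named in the submitters' processing notes without versions. No source used here gives the genome build, annotation release, strand setting or treatment of shared reads. Raw counts of reads for each gene and a second set of columns in FPKM are what the authors deposited. FPKM equalled the count over gene length and library total, with a largest deviation of 0.00847% between libraries over 12946 genes. Total counts were 13744680 to 15949500 in hormone libraries and 12931982 to 15809858 in controls. A count of 0 allows up to 0.188 to 0.232 CPM (3 counts, counting error only). The table held 0 columns of other samples.

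The test on counts was that of edgeR 4.0.16 under R 4.3.3 (filterByExpr with a minimum count of 10, TMM, robust quasi-likelihood F-test, no block, two-sided). The fit covered all 14003 genes kept, with Benjamini-Hochberg adjustment over them and calls at an adjusted p under 0.05. SE is the log2 fold change over the root of F, and 95% intervals use the moderated degrees of freedom. The test was checked on simulated counts. Alternatives were 3 other scalings, DESeq2 1.42.0, no filter, limma 3.58.1 on log2(FPKM + 1), with pseudocounts 0.1 and 5 and other filters, a replicate block, and leaving out each library. Replicate pairs differed beyond sampling noise (chi-square per gene 22.3 to 112).

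The members and lists were chosen with earlier results of these data known. Every member is named, with per-library values for those called or with groups apart. Of each related list, called genes and otherwise the 4 smallest p are named. RefSeq promoter windows were matched by symbol. Some genes of the related lists are not reported here.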

Additional observations from a re-analysis of the deposited data

How the results depend on the processing

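Across the 17 alternatives, Mboat2 and Eaf2 were called in every one, 21 of the 31 androgen-responsive genes were called in none, and 9 changed sign in at least 1 without being called. Genes of the list called higher numbered 3 in the reported fit, 8 with DESeq2 and 2 to 3 with a library left out. Genes called lower numbered 0, and 1 with library totals alone and with limma on log2(FPKM + 1), log2(FPKM + 0.1), log2(FPKM + 5) and the filter at a mean FPKM of 1 (Tpd52 each time), 2 with DESeq2, and 0 to 1 with a library left out (Abcc4 without control 1). The median log2 fold change of the list, 0.24, was 0.11 with library totals, 0.11, 0.11 and 0.055 with limma at pseudocounts 1, 0.1 and 5, 0.10 with the FPKM filter, 0.11 with no FPKM filter, and 0.19 to 0.25 with a library left out. Over all genes, the 458 calls became 1498 with DESeq2, 274 with limma at pseudocount 5, 278 with the FPKM filter, 130 with no FPKM filter, and 64 (without control 2) to 463 with a library left out. Calls were 334 higher and 124 lower, and 259 and 230 with library totals, 909 and 589 with DESeq2, and 207 and 144 with limma at pseudocount 1. The cause of these differences was not tested. By construction, fits without a library have fewer samples, and a larger pseudocount shrinks the folds of low genes.

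Over all genes tested, deviations of same-numbered libraries from their group means had correlations of 0.083, -0.057 and 0.070. With 3 libraries in each group, these values cannot show whether the numbers pair the libraries. The replicate block left 2 genes of the list called higher, Mboat2 (adjusted p = 0.0182) and Eaf2 (0.0100), and 308 calls over all genes, 80 of them lower. Low counts limit Inpp4b, with 59 reads over the controls, and Elovl7, with 186.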
